A study of Mus musculus with 24 samples.

Results

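Phase II conjugation enzymes of the glutathione S-transferase (Gst), sulfotransferase (Sult) and UDP-glucuronosyltransferase (Ugt) families were followed across dissected mouse gut tissue. Members were the protein-coding genes whose symbol began with Ugt or Sult and a digit or with Gst and a letter, at 1 CPM (a read count scaled to library size) or more in at least 3 of the 24 libraries. Of 39179 genes in the count tables, 64 carried such a name and 39 passed the level filter, made up of 22 of 23 Gst, 8 of 21 Sult and 9 of 20 Ugt genes. Just inside the filter stood Sult6b1, with 3 libraries at 1 CPM and a highest value of 1.57 CPM. Just outside stood Sult5a1, with a highest value of 0.81 CPM, and Ugt3a1, with 0.801 CPM. Sult2a1 to Sult2a7 had no read in any library.

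The study compared gut tissue of mice lacking one or both copies of Cdx2, a homeobox transcription factor of the intestinal epithelium, with or without a mutated Apc allele, and had 3 libraries for each of 8 groups. Untreated mice gave the WT cecum, the WT stomach and the Cdx2+/- cecum. Cdx2-/- cecum came from Cdx2f/f::AhCreERT mice given tamoxifen and β-naphthoflavone, in a set 1 (replicates 1 to 3) and a set 2 (replicates 4 to 6) that the library codes tell apart. Cdx2f/f::AhCreERT::ApcD14/+ mice under the same agents gave cecum and ileum labelled Cdx2-/-;Apc+/-, and untreated mice gave Apc+/- ileum. The CreERT recombinase was driven by the Cyp1a1 (Ah) promoter, which the aryl hydrocarbon receptor Ahr switches on, and β-naphthoflavone is an Ahr ligand. Because each library labelled Cdx2-/- was treated and none of the others was, loss of Cdx2 and the agents cannot be told apart. Ages and the time after treatment are not given in the labels. The genotype entries of Apc+/- ileum replicates 1 and 3 name floxed Cdx2 and AhCreERT while their descriptions name a non-floxed allele; replicate 2 carries ApcD14/+ alone, and the titles were followed here. Nothing states that replicates were separate animals, so p-values measure only the spread between these samples. In dissected tissue, fewer cells of a type and less RNA per cell cannot be told apart.

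Cdx2 stood at 623, 663 and 408 CPM in WT cecum, at 118, 115 and 116 CPM in Cdx2+/- cecum and at 130 (lowest), 166 (median) and 349 CPM (highest) in Cdx2-/- cecum. Cdx2-/-;Apc+/- cecum held 151, 122 and 137 CPM, and WT stomach at most 1.52 CPM. All mutant cecum libraries were below WT cecum, and the 6 libraries labelled Cdx2-/- were above the 3 labelled Cdx2+/-; reads were counted over the whole gene, so the deleted part was not read apart. In ileum, the Apc+/- libraries held 90.1, 63.3 and 112 CPM, and those labelled Cdx2-/-;Apc+/- held 78.9, 178 and 36.9 CPM. Replicate 2 of the latter was above every Apc+/- library, against its label, and results that rest on it are given with and without it. Xist was at 666 to 816 CPM in Cdx2-/- cecum set 1 and at most 2.19 CPM elsewhere, with Ddx3y at most 0.25 CPM in set 1 and at least 42.3 CPM elsewhere, so set 1 was female and the other groups male. Gene totals ran from 36567685 to 87975179 reads per library.

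Phase II enzymes attach a water-soluble group to drugs, plant compounds, steroids, bile pigments and the reactive products of oxidation, which transporters then carry out of the cell. Gst enzymes use glutathione, Sult enzymes use the sulfate donor PAPS, and Ugt enzymes in the endoplasmic reticulum use UDP-glucuronic acid. Their genes are regulated by Nrf2 through antioxidant response elements, by Ahr through xenobiotic response elements and by nuclear receptors such as Hnf4a and Nr1i2. In the gut they form part of the barrier against compounds taken in with food, and many Sult and Ugt genes are expressed by absorptive cells.

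The make-up of the family sums moved from Sult and Ugt to Gst in each mutant cecum group. A split led by Gst was also seen in WT stomach and in the ileum groups, untreated Apc+/- ileum among them. Summed per kilobase of exon not shared with other genes, Gst members reached 777 ± 147 CPM per kb (SD, n = 3) in WT cecum, 3349 ± 447 (n = 3) in Cdx2+/- cecum, 2718 ± 595 (n = 6) in Cdx2-/- cecum and 5297 ± 432 CPM per kb (n = 3) in WT stomach. Sult members summed to 965 ± 205, 297 ± 18.9, 268 ± 59.9 and 484 ± 35.1 CPM per kb in the same order, and Ugt members to 435 ± 68.0, 163 ± 19.6, 102 ± 15.0 and 167 ± 13.7 CPM per kb. Gst members thus took 31.9 to 43.1% of the members' sum in the WT cecum libraries, 87.1 to 88.4% in Cdx2+/- cecum, 83.5 to 91.1% in Cdx2-/- cecum and 88.3 to 89.4% in WT stomach, with no overlap between WT cecum and the other 3 groups. Cdx2-/-;Apc+/- cecum held 1875 ± 410 CPM per kb of Gst, 282 ± 39.1 of Sult and 89.6 ± 22.3 of Ugt (n = 3). Levels in Apc+/- ileum were the lowest of the 8 groups in all 3 families, at 370 ± 82.4, 40.8 ± 3.12 and 39 ± 4.56 CPM per kb (n = 3). Gst members still took 76.8 to 84.3% of the members' sum there, and 81.6 to 89.4% in Cdx2-/-;Apc+/- ileum, above every WT cecum library.

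**Figure D1:**
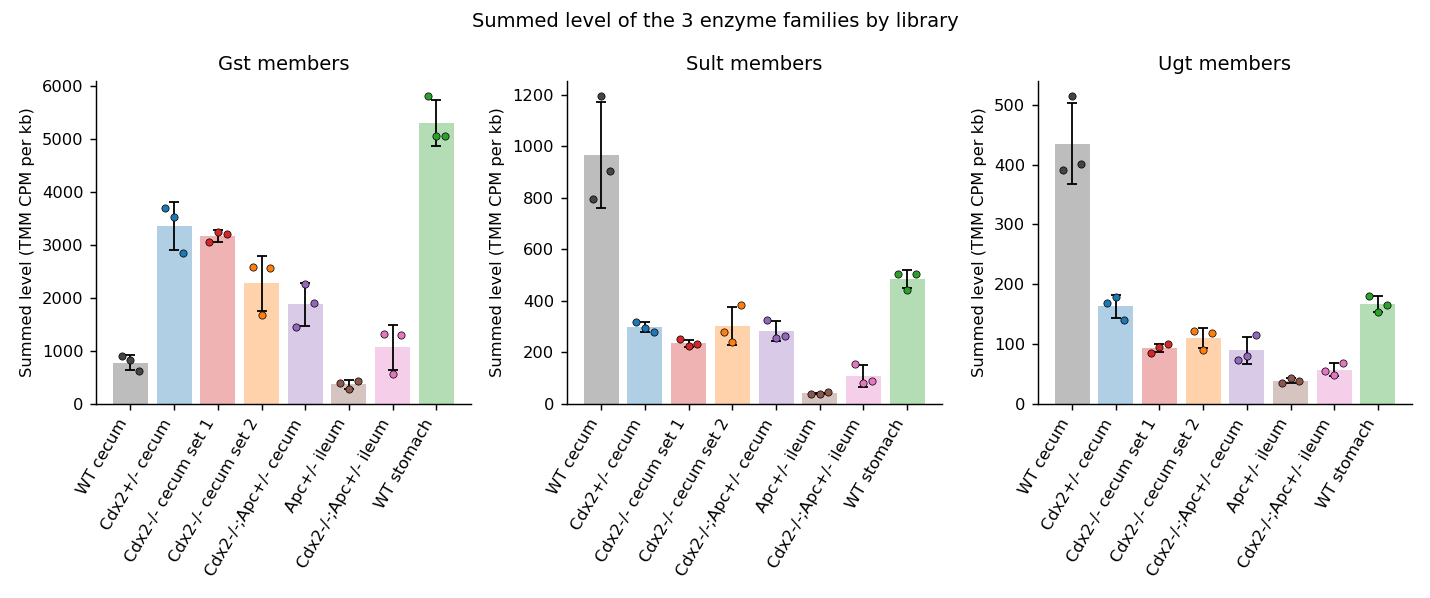
Summed level of the Gst, Sult and Ugt members in each group, in CPM per kb of unshared exon; bars are means, error bars SD and points single libraries. Gst sums of 613 to 898 CPM per kb in WT cecum lie below the 2843 to 3692 CPM per kb of Cdx2+/- cecum and the 5045 to 5795 CPM per kb of WT stomach, while Sult and Ugt sums are highest in WT cecum.

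The leading members changed with the family sums. Per kb, WT cecum was led by Sult1a1 (419 CPM per kb), Sult1d1 (358) and Ugt2b34 (235). Cdx2+/- cecum was led by Gsta4 (1102 CPM per kb), Gsta1 (945) and Gsto1 (704), and Cdx2-/- cecum by Gsto1 (884), Gsta4 (671) and Gstm1 (359). WT stomach was led by Gsta1 (1973 CPM per kb), Gsta4 (1609) and Gsto1 (1088).

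Member by member, changes ran both ways in every cecum comparison. Differences were called with edgeR's quasi-likelihood test at a Benjamini-Hochberg adjusted p under 0.05 over 20502 genes, and all 39 members were tested. In Cdx2-/- against WT cecum, 10 members were called higher, 25.6% of 39 against 26.9% of all genes tested, and 14 lower, 35.9% against 26.2% of all genes. In Cdx2+/- against WT cecum, 9 members (23.1%) were higher against 17.1% of all genes, and 14 (35.9%) lower against 17.3%. WT stomach against WT cecum gave 10 members higher (25.6%, all genes 22.1%) and 15 lower (38.5%, all genes 21.6%). Cdx2-/-;Apc+/- against WT cecum gave 8 members higher (20.5%, all genes 26.6%) and 19 lower (48.7%, all genes 26.1%). The shares called higher were near or below those of all genes in the treated groups, so the count of rising members is not particular to the families there. Median log2 fold changes of the members were -0.21, -0.42, -0.22 and -0.88 in these comparisons, against 0.04, -0.05, 0.04 and 0.07 over all genes tested. These comparisons share the 3 WT cecum libraries. By set, Cdx2-/- cecum gave 10 members higher and 13 lower with set 1 alone, and 10 higher and 15 lower with set 2 alone.

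Called members were counted by family as well, to be read beside the shares of all genes given above. In Cdx2-/- cecum, 8 of 22 Gst members were higher and 5 lower, with a median of 0.22. Of the 8 Sult members 1 was higher and 4 lower (median -1.67), and of the 9 Ugt members 1 was higher and 5 lower (median -1.98). In Cdx2+/- cecum 6 Gst members were higher and 6 lower (median -0.14), with 2 and 3 for Sult (median -0.64) and 1 and 5 for Ugt (median -1.19). Cdx2-/-;Apc+/- cecum gave 6 and 8 for Gst (median -0.32), 1 and 5 for Sult (median -1.95) and 1 and 6 for Ugt (median -2.22). In WT stomach the same counts were 7 and 5 for Gst (median -0.02), 1 and 4 for Sult (median -1.55) and 2 and 6 for Ugt (median -2.4).

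**Figure D2:**
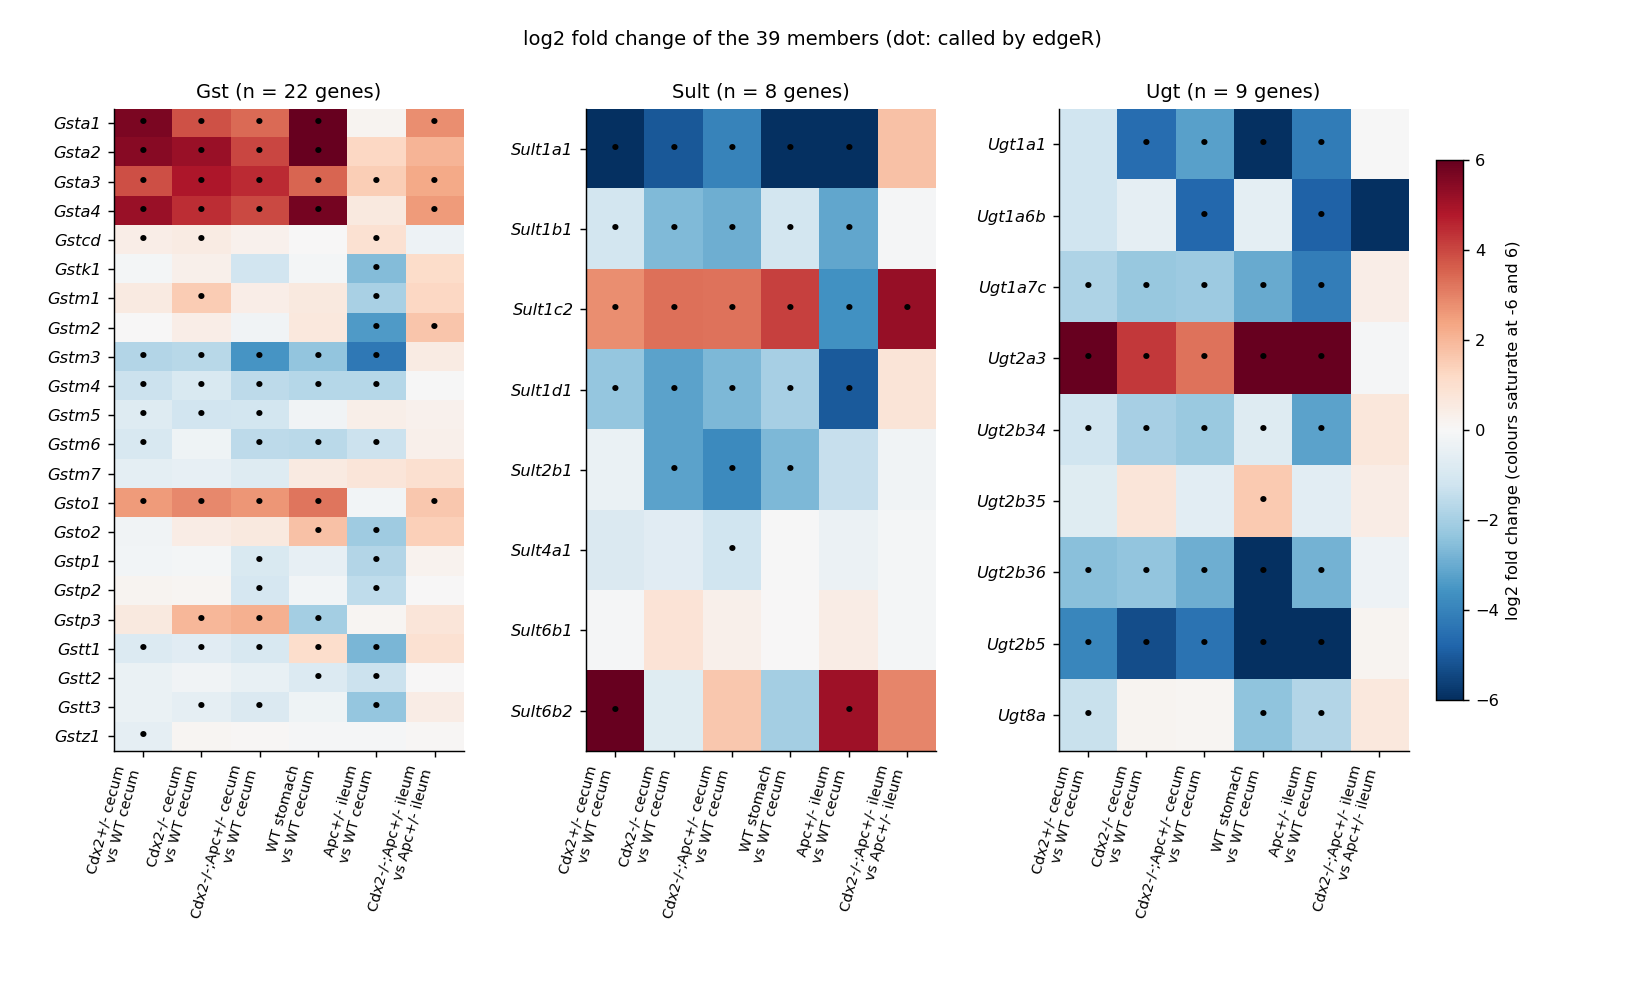
Log2 fold change of each of the 39 members (rows, by family) in 6 comparisons (columns), with the colour scale ending at -6 and 6 and a dot where the member was called. Gsta1, Gsta2, Gsta3, Gsta4, Gsto1 and Sult1c2 are higher, and Sult1a1, Sult1b1, Sult1d1, Ugt1a7c and Ugt2b34 lower, in the columns of mutant cecum against WT cecum and of WT stomach.

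Marker genes of other cells moved with these groups, and their part in the results was not tested. The 10 gastric markers summed to 5.04 to 1089 CPM in WT cecum, 31136 to 33184 in Cdx2+/- cecum, 2327 to 24069 in Cdx2-/- cecum and 214785 to 278121 CPM in WT stomach, with 5 of 10 called higher in Cdx2+/- and 4 higher and 1 lower in Cdx2-/- cecum. None of the gastric markers was at 0 in a whole group. The 10 absorptive colonocyte markers summed to 26883 to 46748 CPM in WT cecum, 5752 to 7762 in Cdx2+/- and 122 to 3053 CPM in Cdx2-/- cecum, with 2 and 10 called lower. All 10 smooth muscle markers were lower in Cdx2+/- cecum, at a sum of 163 to 644 CPM against 1371 to 4464 CPM in WT cecum, while 1 of 10 was lower in Cdx2-/- cecum, at 1600 to 3486 CPM. Of the 10 general gut epithelium markers, 1 was higher and 7 were lower in Cdx2-/- cecum (7213 to 17003 CPM against 15243 to 24518). In Cdx2+/- cecum 1 was higher and 0 lower, at a sum of 25721 to 26180 CPM. All 10 squamous markers were higher in Cdx2+/- cecum, at 48.4 to 962 CPM against 1.78 to 6.62 CPM, and 5 of 10 in Cdx2-/- cecum, at 20.4 to 51.4 CPM with Sprr3 at 0. The 8 fibroblast markers had 5 higher in Cdx2-/- cecum, at 1509 to 2790 CPM against at most 1314 CPM in WT cecum, and 2 lower in Cdx2+/- cecum. The 10 leukocyte markers had 6 higher and 1 lower in Cdx2-/- cecum, at 251 to 629 CPM against 109 to 299 CPM, and 1 higher in Cdx2+/- cecum. Small intestinal enterocyte markers had 2 higher and 5 lower of 10 in Cdx2-/- cecum, at 132 to 566 CPM against 1126 to 2423 CPM, and 4 higher in Cdx2+/- cecum, at 2577 to 5153 CPM. Enteric neuron and glia markers had 7 of 10 lower in Cdx2+/- cecum and 2 higher in Cdx2-/- cecum. Of the 6 hepatocyte and pancreas markers tested, 5 were higher in Cdx2-/- and 2 in Cdx2+/- cecum, at sums of 121 to 286 and 156 to 200 CPM against 37.9 to 56.4 CPM, with Prss1 and Cpa1 at 0 in all 3 groups.

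All 4 alpha-class Gst members rose in Cdx2-/- and in Cdx2+/- cecum. Gsta4, on chromosome 9 from 78182774 to 78209349 (GRCm38, plus strand), encodes the transferase that conjugates the lipid peroxidation product hydroxynonenal. Its level was 42.7, 42.5 and 28.5 CPM in WT cecum, 1458, 1472 and 1254 CPM in Cdx2+/- cecum, and 481 (lowest), 904 (median) and 1066 CPM (highest) in Cdx2-/- cecum. WT stomach held 2336, 1863 and 1910 CPM and Cdx2-/-;Apc+/- cecum 534, 702 and 516 CPM, so no library of these groups came near WT cecum. Against WT cecum the log2 fold change was 4.45 ± 0.40 (SE) in Cdx2-/- cecum (edgeR adjusted p = 5.14e-08), 5.20 ± 0.44 in Cdx2+/- cecum (edgeR adjusted p = 1.02e-07) and 5.75 ± 0.45 in WT stomach (edgeR adjusted p = 1.07e-08).

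Gsta1, on the same chromosome from 78230656 to 78242684 (plus strand), encodes an alpha-class enzyme that also reduces lipid hydroperoxides. It stood at 25.7, 22.9 and 5.96 CPM in WT cecum, 906, 1045 and 758 CPM in Cdx2+/- cecum, and 89.1 (lowest), 300 (median) and 376 CPM (highest) in Cdx2-/- cecum. WT stomach was above all of them at 1858, 1899 and 1903 CPM. The groups did not overlap, and Cdx2-/- cecum lay between WT and Cdx2+/- cecum. The log2 fold change was 3.83 ± 0.60 in Cdx2-/- cecum (edgeR adjusted p = 2.90e-05) and 5.64 ± 0.69 in Cdx2+/- cecum (edgeR adjusted p = 5.97e-06). Gsta2, its near copy, rose from 0.053 to 0.125 CPM in WT cecum to 2.91 to 5.31 CPM in Cdx2+/- and 1.89 to 8.12 CPM in Cdx2-/- cecum; reads that fit both may be lost or split, so their values are uncertain.

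Gsta3, on chromosome 1 from 21240589 to 21265661 (plus strand), encodes the mouse enzyme known for conjugating the epoxide of aflatoxin. Its order was different, with 12.3, 8.53 and 12.8 CPM in WT cecum, 177, 194 and 126 CPM in Cdx2+/- cecum, and 164 (lowest), 343 (median) and 480 CPM (highest) in Cdx2-/- cecum. WT stomach, at 149, 112 and 110 CPM, was below all 6 Cdx2-/- cecum libraries. The log2 fold change against WT cecum was 4.87 ± 0.52 in Cdx2-/- cecum (edgeR adjusted p = 3.32e-07) and 3.89 ± 0.51 in Cdx2+/- cecum (edgeR adjusted p = 1.46e-05). The difference between Cdx2-/- and Cdx2+/- cecum, 0.99 ± 0.41, missed the threshold in edgeR's test (adjusted p = 0.0632).

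Gsto1, on chromosome 19 from 47854970 to 47864790 (plus strand), encodes an omega-class enzyme that reduces disulfides and methylated arsenic. It was at 277, 252 and 190 CPM in WT cecum, 1877, 1285 and 1110 CPM in Cdx2+/- cecum, and 1357 (lowest), 1902 (median) and 2120 CPM (highest) in Cdx2-/- cecum. Mutant and WT cecum did not overlap, and the log2 fold changes were 2.89 ± 0.31 and 2.57 ± 0.33 in Cdx2-/- and Cdx2+/- cecum (edgeR adjusted p = 3.56e-07 and 9.15e-06). Its neighbour Gsto2 stayed between 1.17 and 3.59 CPM in these 3 groups and was called higher in WT stomach, at 4.61, 6.76 and 6.75 CPM.

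**Figure D3:**
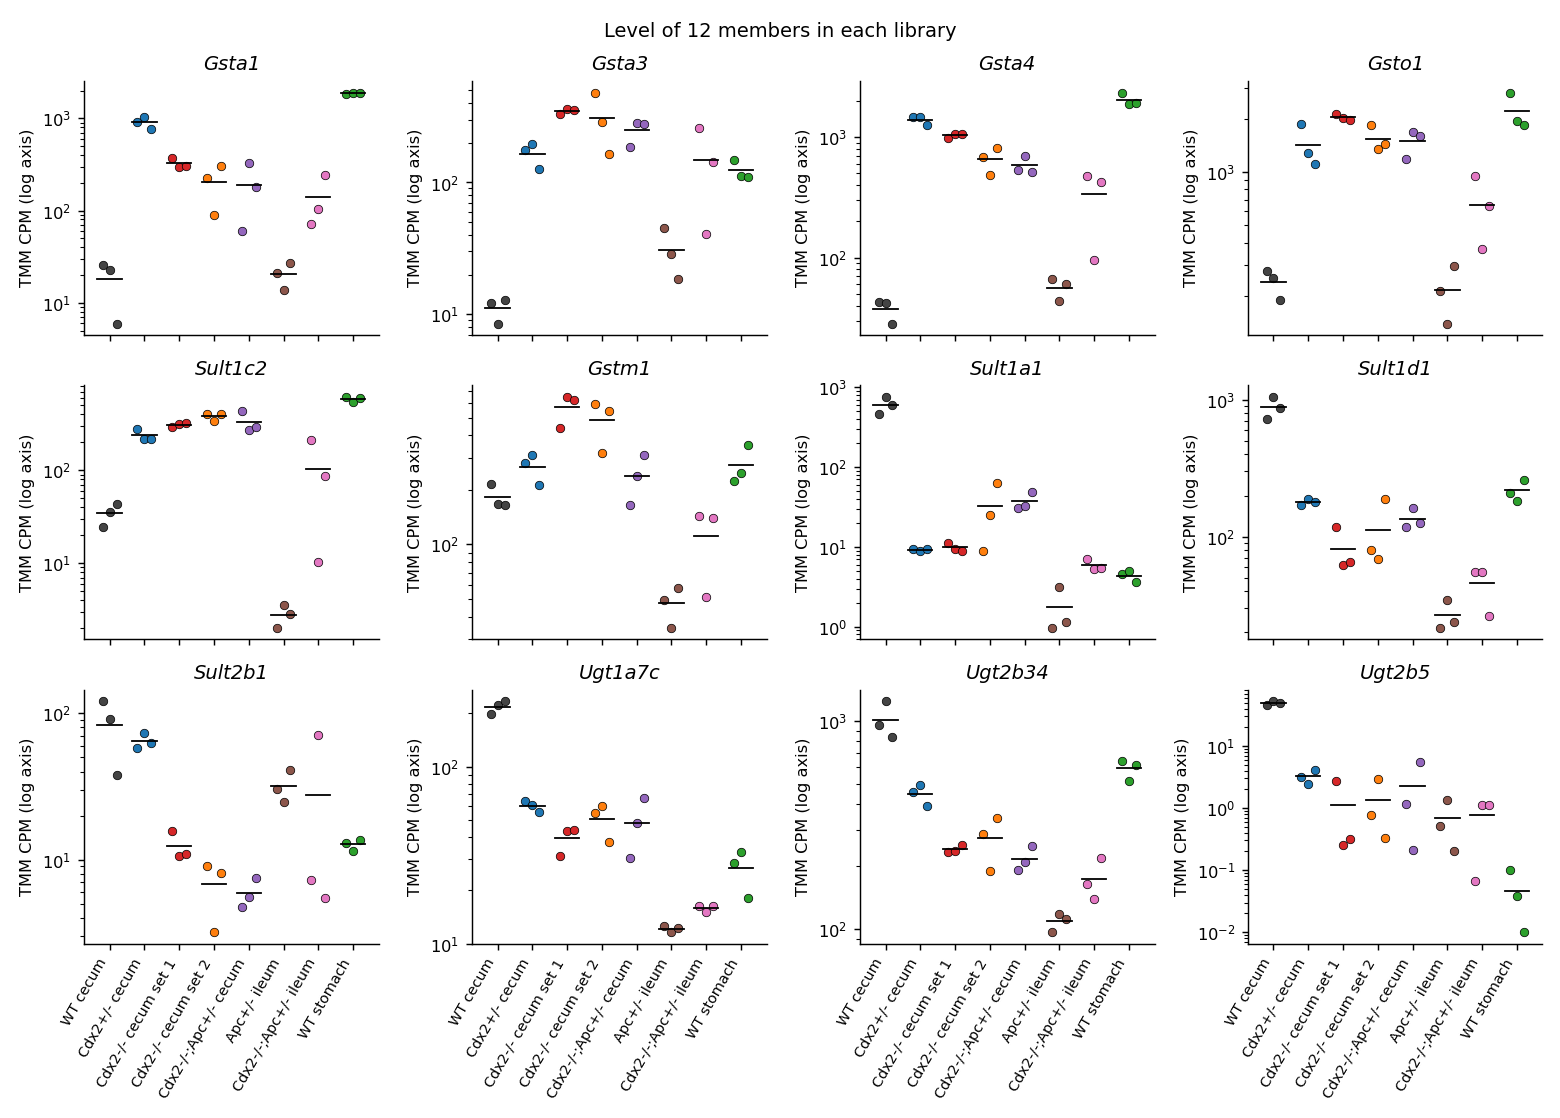
Level of 12 members in every library (points, CPM on a log axis, values of 0 drawn at 0.01) by group, with lines at group means. Gsta1, Gsta4, Gsto1 and Sult1c2 lie lowest in WT cecum or Apc+/- ileum and highest in WT stomach or mutant cecum, and Sult1a1, Sult1d1, Ugt1a7c, Ugt2b34 and Ugt2b5 lie highest in WT cecum.

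Start-site sequences of Gsta1 and Gsta3 are shown because both were called higher in each mutant cecum group and each held the core letters of an element named above. Windows ran from 250 bases before to 50 after the RefSeq start (GRCm38.p6, coding strand) and matched 35 of the 39 members, with 46 windows in all; Gsta4 is named only. Capitals mark the xenobiotic response element core GCGTG in Gsta1 (chr9:78230419-78230718, plus strand), whose first base is 2 before the start, and the antioxidant response element core TGACNNNGC in Gsta3 (chr1:21240335-21240634, plus strand), 121 before the start.
Gsta1: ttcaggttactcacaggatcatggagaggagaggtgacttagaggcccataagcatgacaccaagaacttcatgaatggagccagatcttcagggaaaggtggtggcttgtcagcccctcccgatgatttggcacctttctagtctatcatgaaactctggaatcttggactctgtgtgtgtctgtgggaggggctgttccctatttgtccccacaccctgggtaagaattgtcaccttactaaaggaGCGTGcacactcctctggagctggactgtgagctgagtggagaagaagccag
Gsta3: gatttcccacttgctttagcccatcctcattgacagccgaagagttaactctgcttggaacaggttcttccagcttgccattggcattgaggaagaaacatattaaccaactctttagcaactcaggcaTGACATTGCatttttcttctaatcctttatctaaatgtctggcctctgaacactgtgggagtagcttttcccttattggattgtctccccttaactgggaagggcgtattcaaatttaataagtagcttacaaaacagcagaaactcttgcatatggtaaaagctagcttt
Searched on both strands, GCGTG was present in 13 of the members' windows (28.3%) and in 32.4% of 32851 RefSeq windows of that length. TGACNNNGC was present in 3 member windows (6.52%), those of Gsta3, Gstm5 and Gstm7, and in 12.4% of all windows. In Gstm5 the matches to the TGACNNNGC and GCGTG motifs overlapped. The Cdx element TTTATNG was present in 4 member windows (8.7%), against 10.9% of all. A match is a description of letters and not of binding.

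Mu-class genes did not move together. Gstm1, a mu-class enzyme with broad activity on epoxides, stood at 215, 167 and 164 CPM in WT cecum, 281, 312 and 212 CPM in Cdx2+/- cecum, and 318 (lowest), 569 (median) and 650 CPM (highest) in Cdx2-/- cecum. The 6 Cdx2-/- libraries lay above all libraries of the other 2 groups, whereas WT and Cdx2+/- cecum overlapped. Its log2 fold change was 1.53 ± 0.31 in Cdx2-/- cecum (edgeR adjusted p = 0.00041) and 0.56 ± 0.34 in Cdx2+/- cecum (edgeR adjusted p = 0.212, not called).

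Gstm3 went the other way, from 90.7, 87.4 and 76.0 CPM in WT cecum to 31.3, 27.1 and 16.3 CPM in Cdx2+/- cecum and 11.4 (lowest), 22.2 (median) and 59.5 CPM (highest) in Cdx2-/- cecum. Log2 fold changes were -1.68 ± 0.45 in Cdx2-/- (edgeR adjusted p = 0.00415) and -1.76 ± 0.56 in Cdx2+/- cecum (edgeR adjusted p = 0.0198); without Cdx2+/- replicate 3 the latter was -1.53 and no longer called (edgeR adjusted p = 0.0857). Gstm4 and Gstm5 were also called lower in both, with log2 fold changes of -0.90 and -1.16 in Cdx2-/- cecum and -1.30 and -0.78 in Cdx2+/- cecum. Gstm6 was called lower in Cdx2+/- cecum (-0.94) and not in Cdx2-/- cecum (-0.25). In Cdx2+/- cecum, Gstm5 and Gstm6 lost their calls without WT cecum replicate 1 or 2 or Cdx2+/- replicate 3, and Gstm6 also without Cdx2+/- replicate 2 or with only the compared groups fitted. Gstm2 and Gstm7 were called in neither, with log2 fold changes of 0.40 and -0.49 in Cdx2-/- cecum.

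Gstp3, of the pi class, was at 5.01, 3.93 and 2.69 CPM in WT cecum, 5.02, 6.04 and 6.28 CPM in Cdx2+/- cecum, and 10.9 (lowest), 13.1 (median) and 21.8 CPM (highest) in Cdx2-/- cecum. It was called higher in Cdx2-/- cecum (log2 fold change 2.01 ± 0.36, edgeR adjusted p = 0.000134) and lower in WT stomach, at 0.67, 1.34 and 0.837 CPM. Gstp1, the main pi-class enzyme, and Gstp2 were called in neither Cdx2-/- nor Cdx2+/- cecum, with Gstp1 between 97.7 and 251 CPM in those groups and WT cecum; reads shared by these close copies may be split between them or lost. Theta-class Gstt1, which acts on small halogenated compounds, was lower in Cdx2-/- (-0.67) and Cdx2+/- cecum (-0.83) and higher in WT stomach (1.04). Gstt3 was lower in Cdx2-/- cecum (-0.53), a call lost without WT cecum replicate 1 or 2, and Gstt2 was not called in either. Gstz1, the maleylacetoacetate isomerase of tyrosine breakdown, was lower in Cdx2+/- cecum (-0.52) at 22, 17.9 and 18.6 CPM against 26.7, 27.6 and 29.7 CPM. Gstk1, the kappa-class enzyme of mitochondria and peroxisomes, ranged from 46.7 to 279 CPM over the 6 Cdx2-/- libraries and was not called. Gstcd, named for its Gst-like domain, was higher in Cdx2-/- (0.51) and Cdx2+/- cecum (0.38); the latter call was lost without WT cecum replicate 1 or 2, without any 1 of the Cdx2+/- libraries, with no filter and with only the compared groups fitted.

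Of the 8 Sult members, 4 fell and 1, Sult1c2, rose in Cdx2-/- cecum, and 3 fell and 2 rose in Cdx2+/- cecum. Sult1a1, on chromosome 7 from 126672865 to 126676432 (minus strand), encodes the phenol sulfotransferase and was the leading member of WT cecum. It stood there at 462, 756 and 602 CPM, at 9.55, 8.94 and 9.3 CPM in Cdx2+/- cecum, and at 8.81 (lowest), 10.3 (median) and 63.0 CPM (highest) in Cdx2-/- cecum. Cdx2-/-;Apc+/- cecum held 30.7, 32.5 and 48.6 CPM and WT stomach 4.55, 5.0 and 3.6 CPM, so every library outside WT cecum was below it. The log2 fold change in Cdx2-/- cecum was -5.09 ± 0.41 (edgeR adjusted p = 1.19e-08), and in WT stomach -7.11 ± 0.61 (edgeR adjusted p = 3.15e-08).

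Sult1d1, on chromosome 5 from 87554645 to 87569027 (minus strand), sulfonates dopamine and other catechols in mice. Its values were 725, 1052 and 867 CPM in WT cecum, 172, 188 and 178 CPM in Cdx2+/- cecum, and 61.8 (lowest), 74.4 (median) and 188 CPM (highest) in Cdx2-/- cecum. Both mutants were below WT cecum without overlap, with log2 fold changes of -3.20 ± 0.29 in Cdx2-/- (edgeR adjusted p = 4.78e-08) and -2.30 ± 0.36 in Cdx2+/- cecum (edgeR adjusted p = 8.06e-05). Sult1b1, which sulfonates thyroid hormones and small phenols, fell from 373, 548 and 280 CPM in WT cecum to 179, 198 and 181 CPM in Cdx2+/- cecum and 31.5 (lowest), 52.0 (median) and 111 CPM (highest) in Cdx2-/- cecum. Its log2 fold change was -2.63 ± 0.33 in Cdx2-/- (edgeR adjusted p = 2.42e-06) and -1.11 ± 0.40 in Cdx2+/- cecum (edgeR adjusted p = 0.0391). The Cdx2+/- call was lost without WT cecum replicate 1 or 2, without any 1 of the Cdx2+/- libraries, and with no filter on low counts. Sult1b1 was also called lower in WT stomach, a call lost without WT cecum replicate 1 or 2 or any 1 of the stomach libraries.

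Sult2b1, the sulfotransferase of cholesterol and hydroxysteroids, differed between the 2 Cdx2 genotypes. WT cecum held 121, 92.1 and 37.6 CPM, Cdx2+/- cecum 57.6, 72.9 and 62.7 CPM, and Cdx2-/- cecum 3.19 (lowest), 9.81 (median) and 15.6 CPM (highest). The Cdx2+/- libraries lay within the WT range, and all Cdx2-/- libraries lay below both. Against WT cecum the log2 fold change was -0.38 ± 0.64 in Cdx2+/- cecum (edgeR adjusted p = 0.686) and -3.19 ± 0.54 in Cdx2-/- cecum (edgeR adjusted p = 6.87e-05).

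Sult1c2, on chromosome 17 from 53829637 to 53846339 (minus strand), is a sulfotransferase of phenolic compounds. It stood at 24.8, 35.7 and 43.5 CPM in WT cecum, 282, 220 and 216 CPM in Cdx2+/- cecum, and 290 (lowest), 329 (median) and 406 CPM (highest) in Cdx2-/- cecum. WT stomach was higher still at 618, 548 and 601 CPM, and none of these groups overlapped. The log2 fold change was 3.31 ± 0.57 in Cdx2-/- (edgeR adjusted p = 7.22e-05) and 2.79 ± 0.58 in Cdx2+/- cecum (edgeR adjusted p = 0.00112). Sult4a1, a brain form with no known substrate, and Sult6b1 were low, at 1.09 to 3.89 CPM and 0.318 to 1.38 CPM in these cecum groups, and were not called. Sult6b2 was at or under 0.053 CPM in WT and Cdx2-/- cecum and at 13.1, 3.25 and 0.0183 CPM in Cdx2+/- cecum, so its call there rests on 2 libraries.

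Of the 9 Ugt members, 5 fell and 1, Ugt2a3, rose in Cdx2-/- cecum and in Cdx2+/- cecum. Ugt2b34, on chromosome 5 from 86889767 to 86906937 (minus strand), belongs to the subfamily that glucuronidates steroids and many drugs. It was at 956, 1247 and 840 CPM in WT cecum, 455, 494 and 391 CPM in Cdx2+/- cecum, and 190 (lowest), 245 (median) and 343 CPM (highest) in Cdx2-/- cecum. The groups formed steps without overlap, and the log2 fold change was -1.98 ± 0.17 in Cdx2-/- (edgeR adjusted p = 2.85e-08) and -1.18 ± 0.21 in Cdx2+/- cecum (edgeR adjusted p = 0.000249). WT stomach, at 645, 516 and 617 CPM, lay between WT and Cdx2+/- cecum.

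Ugt2b5, of the same subfamily, was at 45.7, 52.6 and 49.0 CPM in WT cecum, 3.15, 2.41 and 4.1 CPM in Cdx2+/- cecum, and 0.253 (lowest), 0.551 (median) and 2.96 CPM (highest) in Cdx2-/- cecum. All mutant libraries were below WT, with log2 fold changes of -5.31 ± 0.89 in Cdx2-/- (edgeR adjusted p = 6.18e-05) and -3.93 ± 1.12 in Cdx2+/- cecum (edgeR adjusted p = 0.0102). Ugt2b36 fell from 7.34, 10.2 and 8.87 CPM in WT cecum to 1.04, 1.34 and 2.29 CPM in Cdx2+/- cecum and 1.00 to 2.59 CPM in Cdx2-/- cecum. Ugt2b35, their neighbour, was not called in either and stood at 5.93, 7.03 and 12.8 CPM in WT cecum, 5.02, 6.22 and 4.29 CPM in Cdx2+/- cecum, and 5.8 (lowest), 14.8 (median) and 21.1 CPM (highest) in Cdx2-/- cecum. Ugt2a3 rested on few reads, at most 0.0418 CPM in WT cecum, 1.11 CPM in Cdx2-/- cecum and 2.93 CPM in Cdx2+/- cecum, and was called higher in both.

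Ugt1a genes share their last exons, so reads there cannot be tied to one gene by sequence; 54.6 to 82.7% of the exon length of the 3 Ugt1a members is shared with other genes. Ugt1a7c, which acts on planar phenols, was at 198, 222 and 234 CPM in WT cecum, 63.6, 61.0 and 55.3 CPM in Cdx2+/- cecum, and 31.4 (lowest), 43.4 (median) and 59.5 CPM (highest) in Cdx2-/- cecum. Mutant and WT libraries did not overlap, and the log2 fold changes were -2.29 ± 0.19 in Cdx2-/- (edgeR adjusted p = 2.21e-08) and -1.86 ± 0.24 in Cdx2+/- cecum (edgeR adjusted p = 1.14e-05). Ugt1a1, the bilirubin-conjugating enzyme, stood at 8.79, 21.8 and 16.9 CPM in WT cecum, 7.3, 8.35 and 5.2 CPM in Cdx2+/- cecum, and 0.19 (lowest), 0.579 (median) and 1.26 CPM (highest) in Cdx2-/- cecum. Its log2 fold change was -4.55 ± 0.69 in Cdx2-/- cecum (edgeR adjusted p = 1.97e-05) and -1.19 ± 0.79 in Cdx2+/- cecum (edgeR adjusted p = 0.262, not called). Ugt1a6b split within groups, at 8.34, 9.75 and 0.149 CPM in WT cecum and 7.58, 0.184 and 7.58 CPM in Cdx2-/- set 2. Ugt8a, which uses UDP-galactose to build galactosylceramide, was lower in Cdx2+/- cecum, at 9.86, 8.63 and 10.8 CPM against 18.3, 27.6 and 27.4 CPM in WT cecum, and not called in Cdx2-/- cecum, at 16.5 (lowest), 26.0 (median) and 43.8 CPM (highest). The Cdx2+/- call of Ugt8a was lost without WT cecum replicate 2 or Cdx2+/- replicate 1 or 2.

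Members also lie close together on chromosomes, and 28 of 39 fell into 7 groups with gaps under 500 kb. The chromosome 9 group of Gsta4, Gsta1 and Gsta2 (78182774 to 78355788) had 3 of 3 called higher in Cdx2-/- cecum, in Cdx2+/- cecum and in WT stomach. The chromosome 5 group (86889767 to 87569027) joins Ugt2b34, Ugt2b35, Ugt2b36, Ugt2b5 and Ugt2a3 to Sult1b1 and Sult1d1, enzymes of different families; 5 of 7 were lower and 1 higher in Cdx2-/- and in Cdx2+/- cecum. The chromosome 3 group of 7 Gstm genes (107895821 to 108044894) was mixed, with 1 higher and 3 lower in Cdx2-/- cecum and 0 higher and 4 lower in Cdx2+/- cecum. Among all genes, 26.9% were higher and 26.2% lower in Cdx2-/- cecum, 17.1% and 17.3% in Cdx2+/- cecum, and 22.1% and 21.6% in WT stomach.

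Set against Cdx2+/- cecum, Cdx2-/- cecum had 5 members higher (12.8%, all genes 19.7%) and 8 lower (20.5%, all genes 20.6%), shares no larger than those of all genes. The members higher were Gstm1 (log2 difference 0.97), Gstp3 (1.43), Gstz1 (0.65), Ugt8a (1.5) and Ugt2b35 (1.45). Those lower were Gsta1 (-1.80), Sult1b1 (-1.53), Sult1d1 (-0.90), Sult2b1 (-2.81), Ugt1a1 (-3.36), Ugt2a3 (-2.16), Ugt2b34 (-0.80) and Sult6b2. Gsta4 did not pass (log2 difference -0.75 ± 0.31, edgeR adjusted p = 0.0587) although the 6 Cdx2-/- libraries, at 481 to 1066 CPM, were all below the Cdx2+/- libraries, at 1254 to 1472 CPM. Without Cdx2+/- replicate 3 the higher members numbered 3, with Gstm1 at 0.83 (edgeR adjusted p = 0.0818) and Ugt2b35 at 1.33 (edgeR adjusted p = 0.073) no longer called; Ugt2b35 was also lost without Cdx2+/- replicate 1 (1.43, edgeR adjusted p = 0.0645), and Sult1d1 without replicate 2 (-0.87, edgeR adjusted p = 0.0625). Markers higher in this comparison were 10 of 10 for smooth muscle, 9 of 10 for enteric neuron and glia, 7 of 8 for fibroblasts, 4 of 6 for hepatocyte and pancreas and 1 of 10 for leukocytes. Those lower were 9 of 10 for squamous epithelium, 8 of 10 each for gut epithelium and small intestinal enterocytes, 7 of 10 for gastric cells and 6 of 10 for colonocytes. Their part in the result was not tested, and Cdx2 itself was at 130 to 349 CPM against 115 to 118 CPM.

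Set against Cdx2-/- cecum, Cdx2-/-;Apc+/- cecum had no member higher (0%, all genes 3.93%) and 5 lower (12.8%, all genes 4.5%), all of them Gst genes. The Cdx2-/- side joins female set 1 and male set 2, while the Cdx2-/-;Apc+/- libraries were male. The difference in Apc thus goes along with differences in sex and set, and Gstp2 also differed between the sets (next paragraph). Gstm1 went from 318 (lowest), 569 (median) and 650 CPM (highest) in Cdx2-/- cecum to 164, 238 and 309 CPM in Cdx2-/-;Apc+/- cecum, without overlap (log2 difference -1.15 ± 0.31, edgeR adjusted p = 0.0274). Gstp2 went from 16.1 (lowest), 29.9 (median) and 44.9 CPM (highest) to 11.4, 15.5 and 14.0 CPM, also without overlap (-1.15 ± 0.23, edgeR adjusted p = 0.00735). The other 3 were Gstm3 (-1.88), Gstm4 (-0.69) and Gstm6 (-1.31). Their number depended on single libraries, with 3 without set 1 replicate 2 or 3, 8 without set 2 replicate 5, and 2 and 1 without Cdx2-/-;Apc+/- replicates 1 and 2; without set 2 replicate 6, 1 member was called higher. Gstm1 was lost in 5 of these fits, with log2 differences of -0.97 to -1.16 and edgeR adjusted p of 0.051 to 0.113, and Gstm3 in 5, with -1.39 to -1.86 and edgeR adjusted p of 0.0548 to 0.164. Gstm6 was lost without Cdx2-/-;Apc+/- replicate 1 (-1.18, edgeR adjusted p = 0.054) or 2 (-1.41, edgeR adjusted p = 0.0616). Gstm4 was lost without Cdx2-/-;Apc+/- replicate 2 or 3 and with only the compared groups fitted.

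Between the sets of Cdx2-/- cecum, 1 member was higher in set 2 (2.56%, all genes 4.03%) and 1 lower (2.56%, all genes 6.45%). Sult1a1 was at 8.81, 24.8 and 63.0 CPM in set 2 against 11.3, 9.29 and 8.94 CPM in set 1 (log2 difference 1.71 ± 0.48, edgeR adjusted p = 0.0293), with overlap. Gstp2 was at 24.2, 16.1 and 28.2 CPM against 31.6, 44.9 and 44.5 CPM (-0.82 ± 0.25, edgeR adjusted p = 0.0432), without overlap. Sex and set go together and cannot be told apart. Sult1a1 lost its call without set 1 replicate 1, 2 or 3 or set 2 replicate 5 or 6, and without the last its difference was 0.77 (edgeR adjusted p = 0.221); Gstp2 lost it without set 1 replicate 2 or 3 or set 2 replicate 4 or 5, at -0.62 to -0.87 (edgeR adjusted p = 0.0865 to 0.203).

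In ileum, members of the alpha and omega classes and Sult1c2 were higher in Cdx2-/-;Apc+/- than in Apc+/- tissue, and no Ugt gene was called with all libraries in. The contrast gave 6 members higher (15.4%) where 0.395% of all genes were higher, and 0 members lower where 0.0488% of all genes were. Sult1c2 was at 2.01, 3.58 and 2.8 CPM in Apc+/- ileum and 213, 10.3 and 86.2 CPM in the libraries labelled Cdx2-/-;Apc+/- (log2 fold change 5.21 ± 0.66, edgeR adjusted p = 0.00127). Gsta4 was at 66.1, 43.7 and 60.1 CPM against 480, 96.5 and 427 CPM (2.56 ± 0.39, edgeR adjusted p = 0.00623). Neither pair of groups overlapped, and the lowest value of the second group was in both genes that of replicate 2, the library whose Cdx2 level went against its label. Gsta1 (2.78), Gsta3 (2.26), Gsto1 (1.60) and Gstm2 (1.66) were the other 4 called.

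Without that replicate 2, 12 members were higher and 1 lower, with log2 fold changes of 5.74 for Sult1c2 (edgeR adjusted p = 4.57e-08) and 3.00 for Gsta4 (edgeR adjusted p = 9.98e-07). The calls that this added, the lower one among them, were Gsta2, Gstm1, Gstm7, Gsto2, Gstt1, Sult2b1 and the Ugt gene Ugt2b34. With all libraries in, Sult2b1 alone of these had the lower mean in Cdx2-/-;Apc+/- ileum, at 7.5 against 8.62 CPM per kb. The shares of all genes called in this fit are not given here. Without Apc+/- ileum replicate 1 the count was 1, Sult1c2 (5.02, edgeR adjusted p = 0.0358), and the other 5 lost their call with log2 fold changes of 1.60 to 2.81 (edgeR adjusted p = 0.0522 to 0.188). Without Cdx2-/-;Apc+/- replicate 3 the count was 3, with Gsta1 at 2.11 (edgeR adjusted p = 0.174), Gsta3 at 2.28 (0.0813 by the same test) and Gsto1 at 1.61 (0.0583) lost. Of these, Gsta1 was also lost without Apc+/- replicate 2 or 3, Gsta3 without those or Cdx2-/-;Apc+/- replicate 1, and Gsto1 without Apc+/- replicate 2 or Cdx2-/-;Apc+/- replicate 1. When only the 6 ileum libraries were fitted, none of the 6 was called (edgeR adjusted p = 0.488 to 0.606). The gastric markers, 4 of 10 called higher, summed to 4306, 225 and 6954 CPM in the 3 Cdx2-/-;Apc+/- libraries and 17.8 to 44.3 CPM in Apc+/- ileum, and the small intestinal enterocyte markers to 317, 10663 and 983 CPM against 2241 to 3513 CPM; their part in the result was not tested.

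Apc+/- ileum set beside WT cecum, tissues that differ in site as well as in Apc, had 4 members higher (10.3%, all genes 28.1%) and 23 lower (59.0%, all genes 27.2%), with a median log2 difference of -1.69 against 0.03 over all genes. Sult1a1 was at 0.97, 3.19 and 1.16 CPM, Sult1d1 at 21.6, 34.6 and 24.0 CPM and Ugt2b34 at 96.6, 118 and 112 CPM in Apc+/- ileum, all below each WT cecum library. Gsta3 was among the higher ones, at 45.1, 28.8 and 18.6 CPM (log2 difference 1.46 ± 0.47, edgeR adjusted p = 0.0131); without WT cecum replicate 2 or Apc+/- ileum replicate 1 the higher count was 2 and Gsta3 was not called (1.29 and 1.08, edgeR adjusted p = 0.0588 and 0.0798).

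The change in cecum (Cdx2-/-;Apc+/- against WT) was larger than that in ileum (Cdx2-/-;Apc+/- against Apc+/-) for 4 members (10.3%, all genes 16.4%) and smaller for 20 (51.3%, all genes 18.3%), where larger and smaller refer to the signed difference of log2 fold changes. The controls of these contrasts differ in Apc as well as in site. They also differ in level, since most members were called lower in Apc+/- ileum than in WT cecum (previous paragraph). Per kb of unshared exon, Sult1a1 averaged 419 CPM in WT cecum and 1.23 CPM in Apc+/- ileum, and Ugt2b34 averaged 235 and 25.2 CPM. Gsta3 went the other way, at 2.58 and 7.1 CPM per kb. How far this gap enters the counts was not tested. For Sult1a1 the log2 fold change was -4.02 ± 0.52 in cecum and 1.74 ± 0.50 in ileum (not called), a difference of -5.76 ± 0.71 (edgeR adjusted p = 1.37e-05). For Ugt2b34 it was -2.22 ± 0.22 and 0.68 ± 0.21 (not called), a difference of -2.90 ± 0.30 (edgeR adjusted p = 2.26e-06). For Gsta3 it was 4.48 ± 0.53 and 2.26 ± 0.48, a difference of 2.22 ± 0.66 (edgeR adjusted p = 0.0135). Without Cdx2-/-;Apc+/- ileum replicate 2, the library against its label, 3 were larger and 17 smaller, with differences of -5.83 for Sult1a1 and 1.77 for Gsta3. The count of 4 fell to 1 without WT cecum replicate 2, Cdx2-/-;Apc+/- cecum replicate 1 or Apc+/- ileum replicate 3, and to 2 without WT cecum replicate 1 or 3, Cdx2-/-;Apc+/- cecum replicate 2 or Apc+/- ileum replicate 1.

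Genes that supply the cosubstrates of the Ugt and Sult reactions were mostly lower in Cdx2-/- cecum. The counts of pathway genes here and in the next paragraphs stand beside 26.9% of all genes higher and 26.2% lower in Cdx2-/- cecum, and 17.1% and 17.3% in Cdx2+/- cecum. Of 10 such genes, 7 were lower and 0 higher in Cdx2-/- cecum, 4 lower and 1 higher in Cdx2+/- cecum, and 6 lower and 0 higher in WT stomach. Papss2, which makes the sulfate donor PAPS, was at 3336, 4077 and 3201 CPM in WT cecum, 409, 444 and 363 CPM in Cdx2+/- cecum, and 52.1 (lowest), 71.4 (median) and 163 CPM (highest) in Cdx2-/- cecum. The steps did not overlap, and the log2 fold change in Cdx2-/- cecum was -5.40 ± 0.33 (edgeR adjusted p = 4.16e-10). Ugdh, which oxidises UDP-glucose to UDP-glucuronic acid, was at 1349, 1608 and 1215 CPM, 527, 557 and 388 CPM, and 269 (lowest), 318 (median) and 439 CPM (highest) in the same 3 groups. Its Cdx2+/- and Cdx2-/- libraries overlapped, and both lay below WT cecum (-1.5 ± 0.23 and -2.05 ± 0.19). Slc35d1, which imports UDP-glucuronic acid into the endoplasmic reticulum, was lower in Cdx2-/- cecum, with a log2 fold change of -2.37 ± 0.21.

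Glutathione genes moved both ways, with counts near the shares of all genes in Cdx2-/- cecum, at 4 of 12 higher and 3 lower in Cdx2-/- cecum and 4 higher and 1 lower in Cdx2+/- cecum. Slc7a11, which imports the cystine needed for glutathione, was at 3.28, 2.47 and 4.07 CPM in WT cecum, 38.0, 71.8 and 41.7 CPM in Cdx2+/- cecum, and 109 (lowest), 196 (median) and 333 CPM (highest) in Cdx2-/- cecum. No library overlapped between groups, and the log2 fold change in Cdx2-/- cecum was 5.89 ± 0.44; WT stomach was at 10.5, 8.76 and 10.4 CPM, below both mutants. Gclc, the catalytic subunit of the first enzyme of glutathione synthesis, was higher in Cdx2-/- cecum (1.35 ± 0.33) at 523 to 985 CPM against 223 to 300 CPM in WT cecum, and not called in Cdx2+/- cecum (0.16 ± 0.35). Gsr, which regenerates glutathione, was higher in both (1.02 and 1.51).

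Of 13 genes of the Nrf2 pathway, 6 were higher and 3 lower in Cdx2-/- cecum and 6 higher and 0 lower in Cdx2+/- cecum. Slc7a11, Gclc and Gclm are also among the glutathione genes above, and Nqo1 is also among the Ahr pathway genes below. The counts of these lists are thus not separate results. Nqo1, a quinone reductase often used as a readout of Nrf2 and Ahr, was at 116, 114 and 102 CPM in WT cecum, 427, 558 and 324 CPM in Cdx2+/- cecum, 220 (lowest), 241 (median) and 398 CPM (highest) in Cdx2-/- cecum, and 775, 768 and 1135 CPM in WT stomach. All were above WT cecum, and Cdx2-/- and Cdx2+/- cecum overlapped. Nfe2l2, which encodes Nrf2, was itself lower in Cdx2-/- cecum (-1.03 ± 0.19) and not called in Cdx2+/- cecum (0.40 ± 0.23). Of 8 Ahr pathway genes 7 could be tested, with 3 higher and 3 lower in Cdx2-/- cecum and 3 higher and 1 lower in Cdx2+/- cecum. Cyp1a1, the classic Ahr target whose promoter drives the recombinase, was at or below 0.17 CPM in every cecum and ileum library, treated or not. Tiparp, another Ahr target, was lower in Cdx2-/- cecum (-1.21 ± 0.27). Its mean was 44.3 CPM both in treated Cdx2-/-;Apc+/- cecum (23.5 to 83.6 CPM) and in WT cecum (32.4 to 54.6 CPM). In Cdx2-/-;Apc+/- against WT cecum, 4 of the 7 tested Ahr pathway genes were higher and 0 lower, beside 26.6% and 26.1% of all genes. Nqo1 was called higher in treated Cdx2-/-;Apc+/- ileum than in Apc+/- ileum (2.9 ± 0.54, edgeR adjusted p = 0.0211). Its values were 64.1, 25.0 and 190 CPM against 11.1 to 13.6 CPM. Cyp1b1, a further Ahr target, averaged 0.208 CPM in WT cecum and 1.05 CPM in untreated Cdx2+/- cecum. Its means were 9.97 CPM in treated Cdx2-/- cecum (2.05 to 16.1 CPM), 13.3 CPM in treated Cdx2-/-;Apc+/- cecum and 5.23 CPM in untreated WT stomach. The part of the agents in these levels was not tested. Aldh3a1, an aldehyde dehydrogenase of stomach and cornea that Ahr can induce, was at 0.636, 3.18 and 0.178 CPM in WT cecum, 61.1, 133 and 103 CPM in untreated Cdx2+/- cecum, and 21.8 (lowest), 46.2 (median) and 93.5 CPM (highest) in Cdx2-/- cecum.

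Nuclear receptors that regulate these families were lower in the treated mutant cecum. All 8 followed here were called lower in Cdx2-/- cecum and 1 of 8, Rxra (-0.98 ± 0.24), in Cdx2+/- cecum. Hnf4a was at 2163, 2147 and 1219 CPM in WT cecum, 983, 1164 and 1006 CPM in Cdx2+/- cecum, and 304 (lowest), 354 (median) and 426 CPM (highest) in Cdx2-/- cecum. All 3 groups were apart, with log2 fold changes of -2.36 ± 0.27 in Cdx2-/- cecum (edgeR adjusted p = 9.3e-07) and -0.81 ± 0.33 in Cdx2+/- cecum (edgeR adjusted p = 0.0656, not called). Vdr, the vitamin D receptor, was lower in Cdx2-/- cecum (log2 fold change -4.49 ± 0.63), as were Ppara, a fatty acid sensor (-4.00 ± 0.50), and Nr1i2, a receptor for foreign compounds (-1.31 ± 0.27). In WT stomach, all 8 were lower as well, and in Cdx2-/-;Apc+/- cecum 7 of 8. Untreated Apc+/- ileum also had 7 of 8 lower than WT cecum, and in the ileal contrast none was called.

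Transporters that carry conjugates differed among themselves, with 1 of 8 higher and 5 lower in Cdx2-/- cecum and 2 higher and 2 lower in Cdx2+/- cecum. Abcg2, an apical pump for sulfates and other compounds, was at 376, 460 and 275 CPM in WT cecum, 111, 167 and 159 CPM in Cdx2+/- cecum, and 14.6 (lowest), 19.3 (median) and 44.3 CPM (highest) in Cdx2-/- cecum. The groups did not overlap, although the Cdx2+/- difference was not called (-1.34 ± 0.66) beside -4.02 ± 0.56 in Cdx2-/- cecum. Abcc4, a pump for conjugated steroids and bile acids, rose from 13.5, 6.8 and 12.6 CPM in WT cecum to 50.8, 69.7 and 60.6 CPM in Cdx2+/- cecum and 101 (lowest), 112 (median) and 115 CPM (highest) in Cdx2-/- cecum, with log2 fold changes of 2.46 ± 0.24 and 3.34 ± 0.24. Abcc2, an apical pump for glucuronides and glutathione conjugates, was at 1.32, 0.732 and 0.55 CPM in WT cecum and 21, 35.8 and 22.4 CPM in Cdx2+/- cecum, and at most 0.845 CPM in Cdx2-/- cecum.

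**Figure D4:**
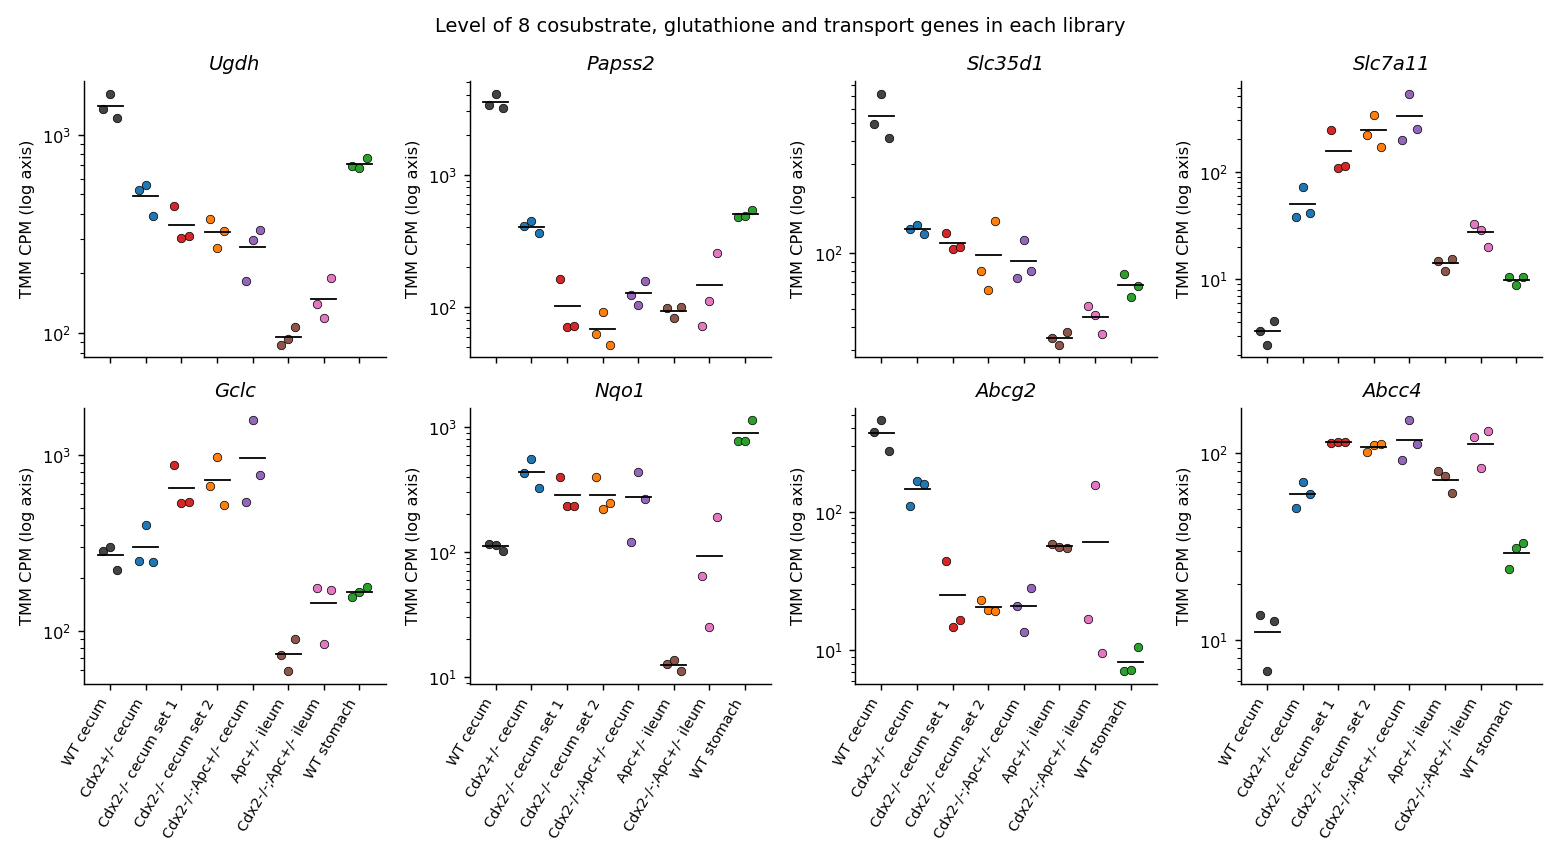
Level of 8 genes that work with the conjugation enzymes in every library (points, CPM on a log axis) by group, with lines at group means. Ugdh, Papss2 and Slc35d1 lie highest in WT cecum, while Slc7a11 and Abcc4 lie lowest there.

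Across the 8 group means of log2 CPM, the genes closest to Gsta4 were Me1 (Pearson r = 0.984), Slc22a15 (0.982) and Gsta2 (0.982). Those closest to Sult1c2 were St6gal2 (0.977), Vsig2 (0.975) and Galntl6 (0.971), and those closest to Ugt2b34 were Pxmp4 (0.986), Umad1 (0.986) and the cosubstrate gene Ugdh (0.985). These values describe 8 means that share libraries and depth.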

How the data were processed

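Deposited values were counts: whole-number reads per gene for each of 24 libraries, one table per library. Total RNA was extracted with Trizol and libraries made with TruSeq mRNA version 2, per the labels' protocols. CASAVA, TopHat2 2.0.11, HTSeq 0.5.3p3 and the GRCm38 build are named in the submitters' processing notes; the annotation release and the strand setting were not given in the sources used here. The 5 closing rows of each table (no feature 6.62 to 10.4%, ambiguous 2.00 to 3.44% and not unique 17.3 to 30.0% of all entries) were kept out of totals and tests. Symbols and exon lengths came from GENCODE (37693 of 39179 IDs, 99.8% of reads), and promoter windows from RefSeq GRCm38.p6.

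The counts as deposited were scaled by TMM and tested with edgeR 4.0.16 (R 4.3.3, limma 3.58.1), with quasi-likelihood F tests over 24 libraries in 8 groups after filterByExpr. Cdx2-/- cecum was the mean of sets 1 and 2 where both enter. CPM values are TMM-scaled, except those of the level filter. Adjusted p-values are Benjamini-Hochberg over all 20502 genes tested. The scripts were tested on simulated counts. Alternatives were DESeq2 1.42.0, RLE factors, no filter, a replicate block, fits of the compared groups only, each set alone, and each library left out. Members with values were named by rule: the called members of largest fold change each way and the most abundant of each family. Members, lists and tests were chosen with earlier results of these data known. Set 1 replicates 2 and 3 were unusually alike (chi-square per degree of freedom 7.03, against 53.0 to 507 in other pairs) but differed beyond counting noise and were kept as 2. Of 21 pairs of groups, 0 had same-numbered samples that all deviated together (r from -0.30 to 0.33). With 3 libraries a group this cannot show whether same-numbered samples came from the same animals, and the main fit used no pairing. One gene that matches the name pattern and one regulator with its motif are not reported here.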

Additional observations from a re-analysis of the deposited data

Results flagged for a closer look

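Among the 6 Cdx2-/- cecum libraries, 3 of 39 members had 1 library far from the others, where chance flags about 1 in 20 groups. Gsta2 was at 8.12 CPM in replicate 1 and from 1.89 CPM upward in the others, a gap of 0.677 of the range. Gstm3 was at 59.5 CPM in replicate 6 (gap 0.708 of the range), and Sult1a1 at 63.0 CPM in the same replicate (gap 0.705), against a critical value of 0.625. Replicate 6 also had the highest Cdx2 level of the 6 libraries, at 349 CPM, and the highest gut epithelium marker sum, at 17003 CPM. Its absorptive colonocyte marker sum, 1060 CPM, was below the 3053 CPM of replicate 1. The part of these levels in the flags was not tested.

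For 17 of 27 named members the log2 fold change in cecum (Cdx2-/-;Apc+/- against WT) differed from that in ileum (Cdx2-/-;Apc+/- against Apc+/-) in edgeR's test of the difference, where 16.4% of all genes were called above 0 and 18.3% below. Some of the 27 were named because they were called in this same difference. The difference was below 0 for Sult1a1 (-5.76), Ugt2b5 (-4.58), Gstm3 (-4.04), Sult2b1 (-3.62), Sult1d1 (-3.48), Ugt1a1 (-3.25), Ugt2b34 (-2.90), Sult1b1 (-2.86), Ugt2b36 (-2.61), Ugt1a7c (-2.56), Gstm6 (-1.88), Gstm2 (-1.85) and Gstp2 (-1.02). It was above 0 for Gsta3 (2.22), Gstp3 (1.45), Gsta4 (1.38) and Gstcd (0.55). Leaving out single libraries ended the calls of Gsta4 (1.21 to 1.48), Gstp3 (1.07 to 1.47) and Ugt2b5 (-4.13 to -4.40) in several of those fits, and those of Gstcd, Gstp2, Ugt1a1 and Ugt2b36 in several as well. The controls differ in Apc genotype and site, which cannot be told apart here. Most members were already called lower in Apc+/- ileum than in WT cecum, and the part of this gap in the differences was not tested.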

How the results depend on the processing

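Over 20 counts of called members, 226 of 272 values under another setting were within 1.5 times the reported count, among them every count against WT cecum for Cdx2-/-, Cdx2+/- and Cdx2-/-;Apc+/- cecum and WT stomach. Of 1132 values for named members, 1030 kept direction and call, 102 kept direction only and 0 reversed; 65 of the 102 came from the 618 fits without 1 library. Set 2 against set 1 gave 0 lower with RLE factors, with no filter, with only the compared groups and with set 1 replicates 2 and 3 added up, and 0 higher under the last 2 settings. The cecal minus ileal difference gave 1 higher with no filter, with only the compared groups and with Apc+/- ileum by replicate 2 alone, a setting chosen after seeing the data. Cdx2-/-;Apc+/- against Cdx2-/- cecum gave 9 lower with DESeq2, 3 lower with set 1 replicates 2 and 3 added up, and 1 higher and 9 lower with the replicate block. The ileal contrast gave 0 higher with only the compared groups or replicate 2 alone. Cdx2-/- against Cdx2+/- gave 8 higher with only the compared groups, and Apc+/- ileum against WT cecum 2 higher by replicate 2 alone. Without single libraries, the counts ran from 2 to 4 higher for Apc+/- ileum against WT cecum and 3 to 7 higher for Cdx2-/- against Cdx2+/-. They ran from 0 to 1 higher and 0 to 1 lower between sets. For Cdx2-/-;Apc+/- against Cdx2-/- cecum they ran from 0 to 1 higher and 1 to 8 lower. For ileum the range was 1 to 12 higher and 0 to 1 lower, and for the cecal minus ileal difference 1 to 6 higher. The cause of these shifts was not tested, beyond the smaller number of libraries in each fit. The replicate block, which holds same-numbered samples together and leaves out set 2, ended the calls of Gsta1 and Ugt2a3 against Cdx2+/-. It also ended those of Gsta1 in ileum (2.75, edgeR adjusted p = 0.0703) and of Gsta4 and Ugt1a1 in the difference. Whether same-numbered samples belong together was not established. Precision is limited by 3 libraries a group, and Ugt2a3, Sult6b2, Ugt1a6b and stomach Ugt2b5 rest on few reads.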

Other observations

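Other conjugating and deconjugating enzymes outside the name pattern also changed. Of 17 tested, 8 were higher and 5 lower in Cdx2-/- cecum, and 7 higher and 2 lower in Cdx2+/- cecum. Beside these counts, 26.9% of all genes were higher and 26.2% lower in Cdx2-/- cecum, and 17.1% and 17.3% in Cdx2+/- cecum. The membrane-bound glutathione transferase Mgst1 was at 80.9, 69.0 and 86.2 CPM in WT cecum, 210, 188 and 165 CPM in Cdx2+/- cecum and 170 (lowest), 192 (median) and 330 CPM (highest) in Cdx2-/- cecum. Its relative Mgst3 was lower in Cdx2-/- cecum, at 148 to 485 CPM against 374 to 742 CPM (log2 fold change -1.04 ± 0.29), and not called in Cdx2+/- cecum (0.27 ± 0.35). Gusb, the lysosomal enzyme that removes glucuronic acid from conjugates, was at 23.6, 23.1 and 35.3 CPM in WT cecum, 69.4, 66.4 and 66.5 CPM in Cdx2+/- cecum and 66.8 (lowest), 84.0 (median) and 94.7 CPM (highest) in Cdx2-/- cecum, above WT cecum in all mutant libraries. Ephx1, the epoxide hydrolase, was higher in Cdx2-/- cecum (1.71 ± 0.28), and the acetyltransferase Nat2 lower in both (-1.30 ± 0.17 and -0.65 ± 0.21).

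Sult6b2 was at 0.112, 0.264 and 27.7 CPM in the libraries labelled Cdx2-/-;Apc+/- ileum and was not called there. Ugt1a6b was listed at 0 in all 3 of them, and at 0, 0.613 and 0.0309 CPM in Apc+/- ileum.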
